A study of Mus musculus with 72 samples.

Results

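A set of 10 genes that coat lipid droplets or make and break down triglyceride was followed in the liver and lung of irradiated mice: Plin2, Plin4, Plin5, Cidec, G0s2, Lpin1, Lpin2, Pnpla2, Dgat2 and Mogat1. They were taken by name and were measured by 18 of the 56605 non-control probes of an Agilent mouse mRNA array, on which 23787 gene symbols could be assigned. All 10 passed the filter on dim probes in each tissue, and the main probe of each was well above background on all 36 arrays. The genes were chosen by function with their fold changes over dose in these same arrays already known, so every comparison of an irradiated dose with the controls is given for these genes as a description without a test.

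Female C57BL/6 J mice aged 6 to 8 weeks were exposed over the whole body to X-rays, once, with 1, 2, 4, 8 and 12 Gy given at the surface to separate groups, and the 0 Gy controls were sham irradiated. Liver and lung were collected after 48 h, with 3 samples per dose in each tissue, which makes 36 mRNA arrays. Both tissues carry the same 18 sample numbers, called mouse numbers here, and the labels do not state that equal numbers are the same animal. No transgene or deletion was carried by any group. The study asked how RNA in an organ responds to whole body irradiation by dose.

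Fat is stored in cells as triglyceride inside lipid droplets, whose surface is covered by perilipins and CIDE proteins. Triglyceride is built by stepwise acylation, in which the lipins remove the phosphate before diacylglycerol acyltransferases such as Dgat2 add the last fatty acid, and it is broken down first by the lipase encoded by Pnpla2, which the G0s2 protein inhibits. The liver takes up fatty acids released by adipose tissue during fasting and stress, and stores or exports them as triglyceride.

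Cdkn1a, a p53 target used here to check the dose labels, was higher at every dose in each tissue, by 6.33 ± 0.24 on the log2 scale (SE, n = 3) at 12 Gy in liver (limma, adjusted p = 2.3e-09) and 3.65 ± 0.20 in lung (adjusted p = 2.0e-08). The arrays carried the tissue they were labelled with: Alb lay between 18.59 and 18.76 in liver and the surfactant gene Sftpc between 18.20 and 18.45 in lung, in log2 normalized intensity, the unit of all levels below. In the other tissue these genes varied more among arrays, Alb from 6.93 to 14.79 in lung and Sftpc from 4.18 to 9.03 in liver. The source of that signal was not tested. The number of arrays and not read depth limits the precision here. Arrays were placed on 5 slides, and dose was not spread evenly over them. In liver, slide 1 held all 0 and 1 Gy arrays and 2 of the 3 at 2 Gy, slide 2 held the remaining 2 Gy array, all arrays at 4 and 8 Gy and 1 at 12 Gy, and slide 3 held the other two at 12 Gy. In lung, 0 and 1 Gy shared slide 3, 2 and 4 Gy and 2 of the 3 arrays at 8 Gy shared slide 4, and the remaining array at 8 Gy and all at 12 Gy shared slide 5, so that in lung any difference between the controls and a dose of 2 Gy or more cannot be told apart from slide. On the 4 lung arrays of slide 5, 54.1 to 54.8% of spots were well above background, against 59.2 to 64.0% on the other lung arrays.

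Plin4 and Plin5 had the largest increases in liver. They encode perilipins, of which perilipin 5 is known for joining droplets to mitochondria in tissues that burn fat. The genes are neighbors on the minus strand of chromosome 17 in GRCm38.p6, Plin4 at chr17:56100587-56109948 and Plin5 at chr17:56111597-56117606, with 1648 bases between them. The RefSeq bases just before each gene are shown because this adjacent pair had the largest changes in liver. They run 5′ to 3′ on the minus strand, Plin4 over chr17:56109949-56110032 and Plin5 over chr17:56117607-56117798, and capitals mark AGGTCA, the core motif bound by nuclear receptors.
Plin4: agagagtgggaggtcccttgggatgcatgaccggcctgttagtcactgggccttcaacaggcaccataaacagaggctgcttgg
Plin5: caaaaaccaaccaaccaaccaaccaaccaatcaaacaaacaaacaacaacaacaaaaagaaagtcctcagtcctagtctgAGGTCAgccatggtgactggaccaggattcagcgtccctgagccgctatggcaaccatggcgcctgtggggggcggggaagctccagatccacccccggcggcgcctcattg
The Plin5 stretch holds AGGTCA 1 time and the Plin4 stretch does not, on either strand. Over promoter windows of 250 bases before to 50 bases after a start, 13 windows represented 9 of the 10 genes, and Plin2, Plin5 and Lpin1 held the motif on either strand. Of all 32851 windows, 16.3% held it. The direct repeat of AGGTCA with any 1 base between the copies, the site type of PPAR receptors, was in 0.0396% of all windows and in none of these 13. A match describes letters in a window and no binding was measured.

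In liver, Plin4 stood at 6.78, 6.80 and 6.57 in the control mice. It stood at 7.74, 6.92 and 6.90 at 1 Gy, at 6.05, 6.55 and 6.99 at 2 Gy, and at 8.41, 7.15 and 8.13 at 4 Gy. At 8 Gy the levels were 9.50, 9.51 and 9.03, and at 12 Gy they were 9.30, 8.34 and 9.75. Every mouse at 1, 4, 8 and 12 Gy lay above every control, whereas the 2 Gy mice lay on either side of them. The log2 fold change was 1.18 ± 0.38 (SE, n = 3) at 4 Gy, 2.63 ± 0.38 at 8 Gy and 2.41 ± 0.38 at 12 Gy, the last a 5.33-fold higher level. The calls use the thresholds of the study's methods, an absolute log2 fold change above 1 with an adjusted p below 0.05, and Plin4 met them at 8 and 12 Gy.

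Plin5 followed a similar course. The controls had 11.76, 11.66 and 11.61, the 1 Gy mice 12.53, 11.57 and 11.61, and the 2 Gy mice 11.47, 11.39 and 11.58. At 4 Gy the levels were 12.57, 12.17 and 12.32, at 8 Gy 13.19, 13.40 and 13.21, and at 12 Gy 12.87, 12.87 and 13.70. All mice from 4 Gy upward were above all controls, and those at 2 Gy were below them. The log2 fold change was 1.59 ± 0.25 at 8 Gy and 1.47 ± 0.25 at 12 Gy, and both were called. The second Plin5 probe gave 1.68 ± 0.30 and 1.53 ± 0.30 at these doses and was called at each.

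**Figure D1:**
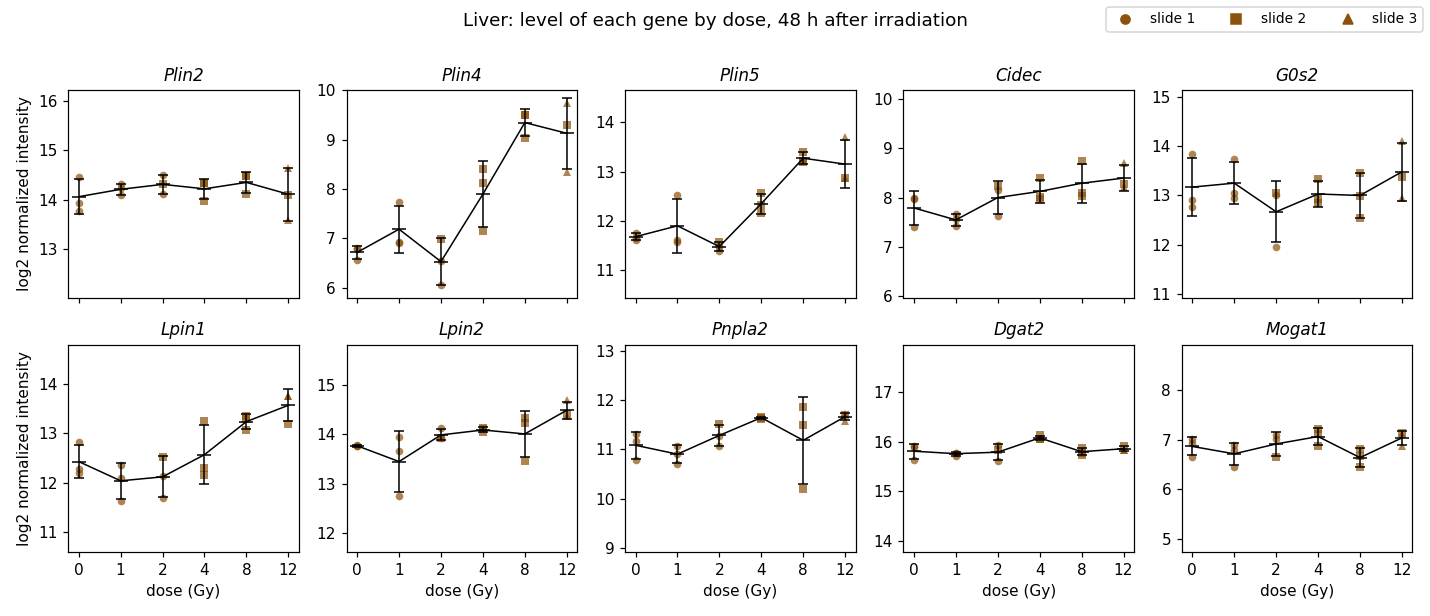
Level of each gene in liver (log2 normalized intensity, each panel spanning 4.2 units) against dose in Gy (doses drawn at equal steps), 1 point per mouse with its shape giving the slide, and the mean ± SD of 3 mice per dose in black. Plin4, Plin5 and Lpin1 are highest at 8 and 12 Gy, while Plin2, Dgat2 and Mogat1 stay near their control levels.

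The 2 other droplet coat genes differed less from the controls. Plin2, the perilipin found on droplets of most cells, stood at 13.78, 13.94 and 14.46 in control liver and at 14.10, 13.58 and 14.65 at 12 Gy, a log2 fold change of 0.05 ± 0.24. The groups overlapped at every dose. Cidec, which fuses droplets into larger ones, stood at 7.98, 7.40 and 8.00 in the controls and at 8.27, 8.22 and 8.70 at 12 Gy. The 8 and 12 Gy mice all exceeded the controls, and the log2 fold change of 0.60 ± 0.23 at 12 Gy did not reach the threshold.

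Lpin1 and Lpin2 encode phosphatidate phosphatases, and lipin 1 also acts in the nucleus as a coactivator of fatty acid oxidation genes. Lpin1 stood at 12.82, 12.27 and 12.19 in control liver and at 12.10, 11.64 and 12.37 at 1 Gy. It reached 13.29, 13.36 and 13.06 at 8 Gy and 13.20, 13.75 and 13.76 at 12 Gy. No mouse at these 2 doses overlapped the controls, and the log2 fold change was 0.81 ± 0.30 at 8 Gy and 1.14 ± 0.30 at 12 Gy, of which the second was called. This call was lost without control mouse 11 (1.06) or 21 (1.02) and without 12 Gy mouse 16 (1.05) or 26 (1.05). Over 16 alternatives it was kept in 7, with values from 0.17 to 1.34. The second Lpin1 probe was called at 8 Gy (1.34 ± 0.37) as well as at 12 Gy (1.28 ± 0.37), and the third, well above background on 11 of 18 liver arrays, was not called.

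Lpin2 had nearly equal levels in the control livers, 13.77, 13.76 and 13.79, and stood at 14.42, 14.37 and 14.69 at 12 Gy. The mice at 2 and 4 Gy also lay above all controls, but those at 8 Gy, at 13.47, 14.33 and 14.23, overlapped them. The main probe gave 0.72 ± 0.26 at 12 Gy and was not called, whereas a dimmer probe for the same gene gave 1.20 ± 0.25 and was called. The other two Lpin2 probes gave 0.61 ± 0.35 and 0.81 ± 0.18, so the 4 probes shared the direction and not the call.

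Genes of triglyceride breakdown and of the last steps of its synthesis stayed below the threshold at every dose in liver. Pnpla2, the adipose triglyceride lipase gene, stood at 11.16, 10.78 and 11.30 in the controls and at 11.69, 11.71 and 11.58 at 12 Gy. The 12 Gy mice were all above the controls, with a log2 fold change of 0.58 ± 0.30, but at 8 Gy the levels ran from 10.19 to 11.85 and overlapped them. G0s2, whose product inhibits that lipase, varied widely among mice, from 12.76 to 13.85 in the controls and from 12.95 to 14.11 at 12 Gy (0.31 ± 0.38).

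Dgat2 ran from 15.64 to 15.91 in control liver and from 15.83 to 15.92 at 12 Gy, a log2 fold change of 0.05 ± 0.11 with a 95% interval of -0.18 to 0.27. Mogat1, a monoacylglycerol acyltransferase gene, ran from 6.66 to 7.01 in the controls and from 6.88 to 7.13 at 12 Gy (0.18 ± 0.16, interval -0.17 to 0.53). At 4 Gy the 3 Dgat2 levels, 16.13, 16.06 and 16.06, were above all controls by 0.27 ± 0.11.

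In all, 0 of the 10 genes were called in liver at 1, 2 and 4 Gy, 2 at 8 Gy and 3 at 12 Gy, each of them higher. Of all 38362 probes tested in liver, 0.0339% were called at 1 Gy, 0.245% at 2 Gy, 0.944% at 4 Gy, 2.21% at 8 Gy and 2.06% at 12 Gy. The median log2 fold change of the 10 genes was 0.26 at 8 Gy and 0.59 at 12 Gy, beside 0.00 and 0.01 over all probes. Fitted as a straight line over 12 Gy, Plin4 gained 2.85 ± 0.41, Plin5 1.78 ± 0.26 and Lpin1 1.51 ± 0.25 on the log2 scale, and these 3 were called beside 2.03% of all probes. Since these contrasts may have chosen the genes, the counts are not read against the background.

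With slide as a term of the liver model, in which the 2 Gy array of mouse 23 alone ties slide 2 to the controls, none of the 10 genes was called. Plin4 was then higher by 1.94 ± 0.69 at 8 Gy and 1.89 ± 0.79 at 12 Gy, Plin5 1.44 ± 0.45 and 1.04 ± 0.52, and Lpin1 0.20 ± 0.51 and 0.17 ± 0.58. Across all probes the calls at 8 Gy went from 846 to 266. Within slide 2, where 4 and 8 Gy can be set side by side, the 8 Gy mice were all above the 4 Gy mice for Plin4 (a difference of 1.45 in means) and Plin5 (0.91), and overlapped them for Lpin1 (0.67). The 8 Gy mice there were all below the 4 Gy mice for Dgat2 (-0.29) and Mogat1 (-0.43), and overlapped them for the rest of the genes. With 3 mice against 3 this is a description, and the share of all probes without overlap was not taken. The part of slide in the liver results was otherwise not tested.

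Fat cells and other cell types were followed by marker lists in the same arrays, and in whole tissue fewer cells of a type and less RNA per cell cannot be told apart. Of 10 adipocyte markers 8 could be tested in liver and 0 were called at any dose, Plin1 was well above background on 0 of 18 liver arrays and Retn on 1, and Adipoq lay between 5.06 and 6.12. The summed adipocyte level went from 16.60 to 16.95 in control liver to 15.80 to 16.11 at 12 Gy, carried by Car3, which liver also expresses. The 8 hepatocyte markers kept a summed level between 20.82 and 20.96 in all liver arrays and none was called. At 12 Gy, 1 of 7 stellate cell markers (Ngfr, -1.28), 1 of 8 macrophage markers (Chil3, -2.27) and 2 of 6 erythroid markers (Alas2, -1.26, and Slc4a1, -1.16) were called lower. Chil3 was well above background on 7 of 18 liver arrays. The summed macrophage level ran from 14.71 to 14.76 at 12 Gy against 15.25 to 15.45 in the controls. Timd4 (-0.84), Csf1r (-0.75), Clec4f (-0.72), Adgre1 (-0.60), Cd5l (-0.60) and Vsig4 (-0.50) lay below all controls there without being called. Marco (0.28) overlapped the controls. Of 6 B cell markers tested, 3 were called lower at 4, 8 and 12 Gy, where their summed level lay between 7.92 and 8.35, compared with 9.48 to 10.11 in the controls. Their part in the results was not tested.

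In lung, Plin5 alone of the 10 genes was called by its main probe, at 12 Gy. It stood at 10.32, 10.12 and 11.16 in control lung, at 10.27, 11.44 and 10.93 at 8 Gy, and at 11.70, 11.59 and 11.64 at 12 Gy. The 12 Gy mice were close to each other and above all controls, with a log2 fold change of 1.11 ± 0.31, and the second Plin5 probe gave 1.53 ± 0.28. The call was lost without control mouse 1 (1.01) or 11 (0.91), and with slide as a random block (1.099). All 12 Gy arrays were on slide 5, apart from the controls, and on that slide the 3 mice at 12 Gy lay above the lone 8 Gy mouse by 0.71. At 12 Gy the summed level of the 9 adipocyte markers with a value on every lung array ran from 17.10 to 17.39 against 17.07 to 17.65 in the controls. That of the 5 such hepatocyte markers ran from 11.00 to 12.50 against 9.05 to 11.02, with Tat, a glucocorticoid responsive liver enzyme gene, the 1 hepatocyte marker called (2.56 ± 0.33). The 7 B cell markers were all called lower at 12 Gy, with a summed level of 10.06 to 10.38 against 13.78 to 14.99. Of the other lists at 12 Gy, 1 of 8 lung epithelium markers (Sftpb, -1.18) was called lower. So were 2 of the 4 markers of red cell precursors tested (Alas2, -6.69, and Slc4a1, -3.57). Of 7 stellate cell markers 1 was called higher (Reln, 1.22), and of 8 macrophage markers 0 were called. The part of these in the Plin5 value was not tested.

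Plin4 in lung ran from 11.59 to 12.62 in the controls and from 12.28 to 12.88 at 12 Gy (0.37 ± 0.43). Its straight line over 12 Gy gained 0.91 ± 0.37 and was not called. The lowest Plin4 level, 10.36, belonged to 1 Gy mouse 2. Within slide 4 the 2 mice at 8 Gy were above all 3 at 2 Gy for Plin4 (0.83), Cidec (0.62) and Lpin1 (0.40). They overlapped them for the rest of the genes, Plin5 (0.48) and Dgat2 (-0.60) among them. With 2 mice against 3 this is a description, and its share over all probes was not taken. Lpin1 lay above all controls at 8 Gy (0.34 ± 0.19) and 12 Gy (0.41 ± 0.19), without reaching the threshold. Pnpla2 stood at 12.53, 12.47 and 12.83 in the controls and at 12.03 and 11.72 at 12 Gy, a log2 fold change of -0.74 ± 0.38, with the value of mouse 16 missing because its spot was marked as an outlier. The same mouse had no value for Lpin2, whose other 12 Gy levels were 14.29 and 14.15 against 13.50 to 13.94 in the controls (0.51 ± 0.26). A dimmer Lpin2 probe was called in lung at 12 Gy (1.21 ± 0.27), and the remaining Lpin2 probes were not.

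**Figure D2:**
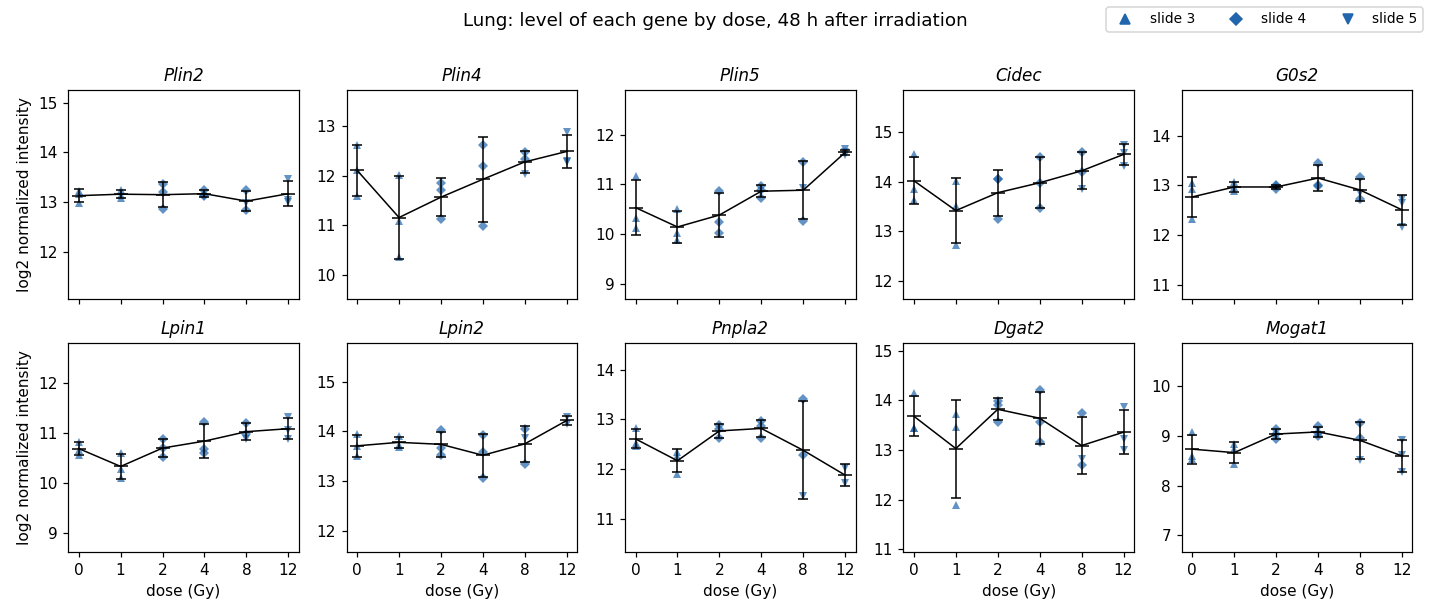
Level of each gene in lung (log2 normalized intensity, each panel spanning 4.2 units) against dose in Gy (doses drawn at equal steps), 1 point per mouse with its shape giving the slide, and the mean ± SD per dose in black. Plin5 at 12 Gy lies above all controls, and Plin4, Cidec and Dgat2 spread widely within doses.

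The counts in lung were 0 of 10 genes called at 1, 2, 4 and 8 Gy and 1 at 12 Gy. Of all lung probes tested, 0.0227% were called at 1 Gy, 0.443% at 2 Gy, 1.46% at 4 Gy, 2.52% at 8 Gy and 7.32% at 12 Gy. As a straight line over 12 Gy, Plin5 gained 1.25 ± 0.26 and was the 1 gene called beside 7.05% of all probes. With slide as a term this line was 1.00 ± 0.64, none of the 10 genes was called, and the calls over all probes went from 3102 to 133. The median log2 fold change of the 10 genes at 12 Gy was 0.21, beside 0.09 over all probes.

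**Figure D3:**
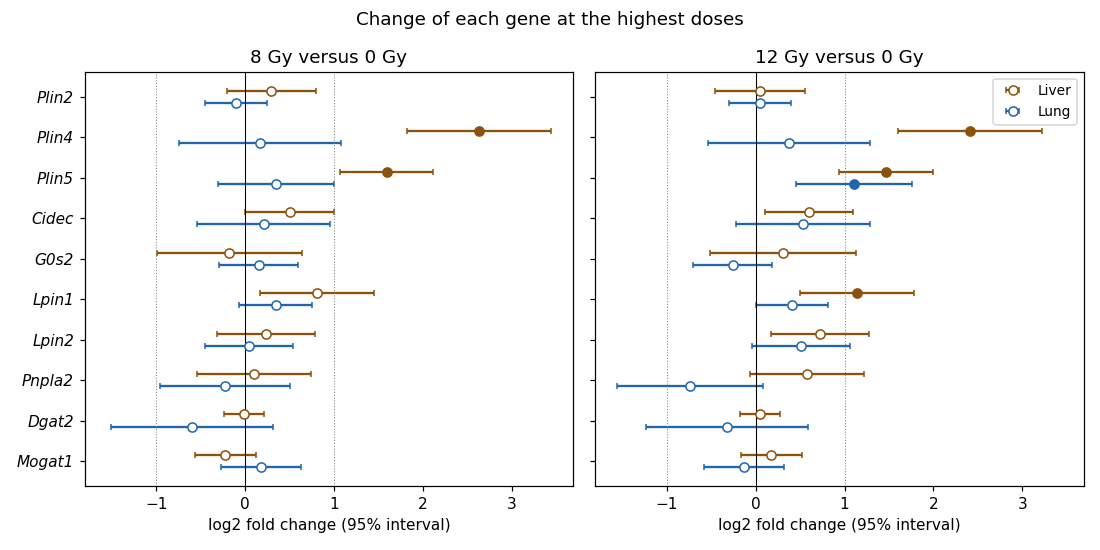
Log2 fold change against 0 Gy with its 95% interval at 8 Gy and at 12 Gy, liver in brown and lung in blue, filled where the gene met the thresholds and with dotted lines at a log2 fold change of -1 and 1. Plin4 reached 2.63 and 2.41 in liver, and Plin5 is the 1 gene filled in both tissues at 12 Gy.

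Adipocyte genes were abundant in the lung samples, and several of the 10 genes varied with them from mouse to mouse. Adipoq ran from 11.83 to 14.63, Cfd from 14.85 to 16.90 and Plin1 from 8.19 to 11.48 over the 18 lung arrays, each well above background on all of them, and 0 of the 10 adipocyte markers were called at any dose. The mean level of 8 adipocyte markers, those measured above background with no missing value on every lung array, was set against each gene over the 18 mice, with 2-sided permutation tests of 100000 draws and Benjamini-Hochberg adjustment over 10 correlations. Cidec had a Pearson r of 0.85 (permutation p = 1e-05, the smallest these draws can give, adjusted 1e-04) and a Spearman rho of 0.79 (permutation p = 0.00018, adjusted 0.0018). Plin4 had an r of 0.82 (permutation p = 4e-05, adjusted 2e-04) and a rho of 0.71 (permutation p = 0.0015, adjusted 0.005). Dgat2 had an r of 0.82 (permutation p = 0.00021, adjusted 7e-04) and a rho of 0.76 (permutation p = 5e-04, adjusted 0.0025).

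These 3 relations held when the mice farthest from the median marker level, mice 2 and 4, were left out, with an r of 0.76 for Cidec, 0.69 for Plin4 and 0.58 for Dgat2. Within slide 3 (6 mice) r was 0.965, 0.93 and 0.99, and within slide 4 (8 mice) it was 0.91, 0.83 and 0.55, while slide 5 held 4 mice, too few for a value. Taken as deviations from the mean of each dose, r was 0.95 for Cidec, 0.88 for Plin4 and 0.94 for Dgat2. The values within slides and doses carry no test, and the genes were chosen with their changes over dose in these arrays known. Lpin1 had an r of 0.61 (permutation p = 0.0072, adjusted 0.018) that was 0.26 without mice 2 and 4 and so rests on them, and a rho of 0.52 (permutation p = 0.03, adjusted 0.057). Plin5, the gene called in lung, had an r of 0.42 (permutation p = 0.077, adjusted 0.11) and a rho of 0.33 (permutation p = 0.18, adjusted 0.22). For the other genes the adjusted p of r was between 0.058 and 0.89, and Mogat1 passed by rho (0.56, permutation p = 0.018, adjusted 0.044) and not by r (0.50, adjusted 0.058).

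**Figure D4:**
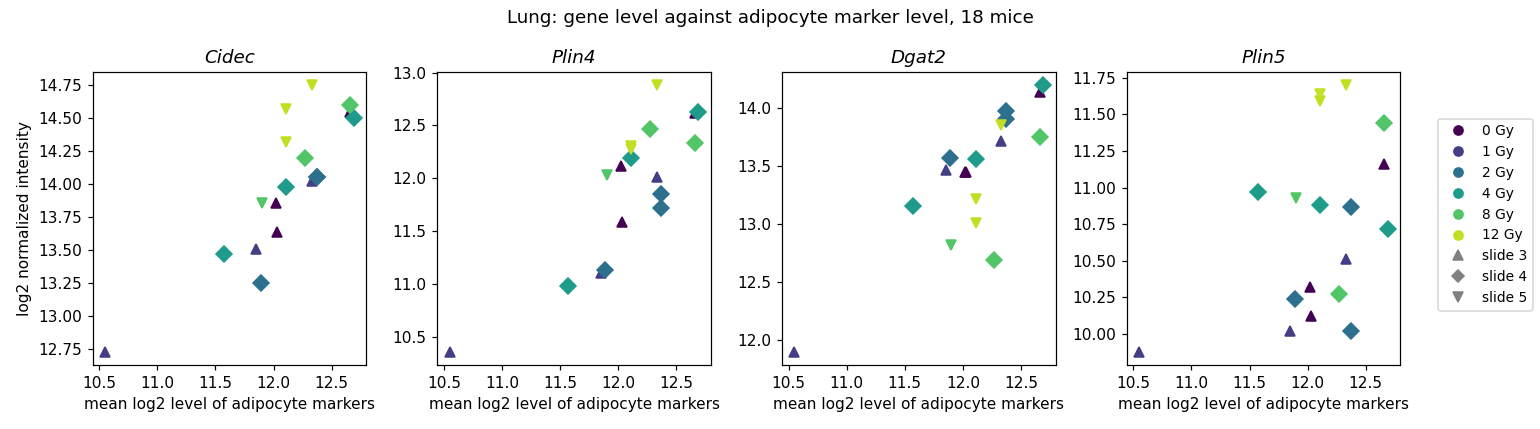
Level of Cidec, Plin4, Dgat2 and Plin5 in lung against the mean level of 8 adipocyte markers, both in log2 normalized intensity, 1 point per mouse colored by dose and shaped by slide. Mouse 2 at 1 Gy is lowest on both axes, the first 3 genes climb with the markers, and the 12 Gy mice stand apart for Plin5.

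Unirradiated liver and lung were compared with all 36 arrays normalized together, a contrast of tissues and not of dose. The liver controls were all on slide 1 and the lung controls all on slide 3, so this contrast is also one between slides. Of the 10 genes, 6 differed past the thresholds, 2 higher in lung and 4 higher in liver, where 35.5% of all 47376 probes did. Cidec was at 8.67 ± 0.31 (SD, n = 3) in liver and 13.87 ± 0.51 in lung, 36.8-fold higher in lung (limma, adjusted p = 5.7e-14), and Plin4 was at 7.65 ± 0.13 and 11.75 ± 0.56, 17.1-fold higher (adjusted p = 2.8e-09). Each was also among the 3 genes that followed the adipocyte markers in lung.

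The 4 genes higher in liver were Dgat2, Lpin1, Plin5 and Plin2. Dgat2 was at 16.05 ± 0.14 in liver and 13.51 ± 0.45 in lung, 5.84-fold higher in liver (adjusted p = 8.2e-07), and Lpin1 was 5.81-fold higher (12.76 ± 0.29 and 10.22 ± 0.13, adjusted p = 2.3e-10). Plin5 was 4.18-fold higher in liver (12.12 ± 0.07 and 10.06 ± 0.58, adjusted p = 4.2e-07) and Plin2 2.48-fold (14.19 ± 0.36 and 12.88 ± 0.16, adjusted p = 7.0e-06). G0s2 was 1.90-fold higher in liver with an adjusted p of 0.0089, below the threshold of fold.

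Lpin2, Pnpla2 and Mogat1 did not pass the test between tissues, with lung minus liver differences of -0.36 (95% interval -0.88 to 0.16), 0.69 (-0.0043 to 1.39) and 0.38 (-0.01 to 0.78). With mouse number as a block the same count of 6 was called. Scaling the scanner's processed signal to the 75th percentile moved the median difference of all probes from -0.05 to -0.28, and under it Lpin2 (-1.46) and G0s2 (-1.84) were called higher in liver as well.

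**Figure D5:**
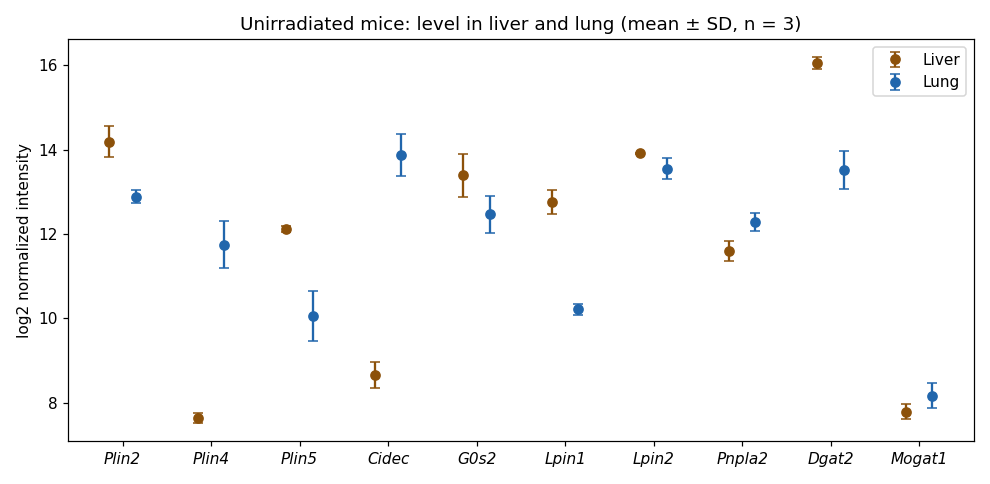
Level of each gene in unirradiated liver (brown) and lung (blue), in log2 normalized intensity with all arrays normalized together, mean ± SD of 3 mice. Cidec and Plin4 are higher in lung, and Dgat2, Lpin1, Plin5 and Plin2 higher in liver, and levels of different genes are not comparable since each has its own probe.

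A list of 40 further genes of triglyceride synthesis, breakdown, droplet coat and assembly, and uptake and export was tested over dose, and this list too was drawn up with earlier results of these arrays known. In liver 39 could be tested and 3 were called at 1 dose or more beside 3.17% of all probes, 2 of 8 genes of uptake and export (higher), 1 of 10 genes of droplet coat and assembly (lower), 0 of 11 of synthesis and 0 of 10 of breakdown. Their median log2 fold change at 12 Gy was 0.09, beside 0.01 over all probes.

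Vldlr, the receptor that takes up very low density lipoprotein, rose from 2 Gy on. It stood at 8.12, 8.21 and 8.79 in control liver, at 10.12, 9.46 and 9.54 at 2 Gy, at 10.31, 10.19 and 10.34 at 4 Gy, and at 9.97, 9.58 and 9.77 at 12 Gy, with no overlap from 2 Gy upward. The log2 fold change was largest at 4 Gy, 1.91 ± 0.25 (limma, adjusted p = 0.0010), and was 1.40 ± 0.25 at 12 Gy (adjusted p = 0.0033). With slide as a term it was 2.15 and 1.85 at these doses and was no longer called. The call at 2 Gy (1.33 ± 0.25, adjusted p = 0.030) was lost without control mouse 1 (1.20) or 11 (1.25) and without 2 Gy mouse 3 (1.13), 13 (1.46) or 23 (1.42).

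Angptl4, a secreted inhibitor of lipoprotein lipase, rose in each tissue. In liver it stood at 13.86, 13.39 and 14.12 in the controls, at 14.77, 15.08 and 14.91 at 8 Gy, and at 15.11, 14.98 and 15.36 at 12 Gy. In lung it stood at 13.10, 12.28 and 13.30 in the controls, at 14.36, 14.31 and 14.19 at 4 Gy, and at 15.30, 14.94 and 14.97 at 12 Gy. At these doses no irradiated mouse overlapped the controls. The log2 fold change at 12 Gy was 1.36 ± 0.23 in liver (limma, adjusted p = 0.0022) and 2.18 ± 0.27 in lung (adjusted p = 1.1e-04). The liver value was 0.81 with slide as a term and not called, and the call at 8 Gy in liver (1.13) was lost without control mouse 11 (0.93). In lung the call at 4 Gy (1.39) was lost without control mouse 11 (1.08).

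Fitm1, which partitions triglyceride into droplets, was called lower in liver at 8 Gy (-1.10 ± 0.32, limma, adjusted p = 0.043), from 9.01, 9.26 and 9.10 to 8.35, 8.36 and 7.37. This call did not hold without control mouse 1 (-1.15), 11 (-1.03) or 21 (-1.11), or without 8 Gy mouse 5 (-1.26), 15 (-1.26) or 25 (-0.77). At 12 Gy the levels of 8.31, 9.18 and 9.36 overlapped the controls. By the straight line over 12 Gy, Mogat2, an acyltransferase gene, fell in liver by 1.02 ± 0.29 on the log2 scale (limma, adjusted p = 0.029). This call held in 11 of 18 fits that each left out 1 mouse, with the smallest change (-0.73) without 12 Gy mouse 6, and not with slide as a term (-1.29).

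In lung all 40 genes could be tested and 4 were called at 1 dose or more beside 7.8% of all probes. Besides Angptl4 these were Fitm2, the paralog of Fitm1 (1.04 ± 0.19 at 12 Gy, limma, adjusted p = 0.0020), Tm6sf2, which acts in lipoprotein lipidation (1.07 ± 0.19, adjusted p = 0.0016), and Pnpla3, a droplet lipase, which fell (-1.15 ± 0.30, adjusted p = 0.014). By the straight line Lpl, the lipase of capillary walls, rose in lung by 1.07 ± 0.19 (adjusted p = 4.7e-04), and with slide as a term the line was 1.24 and not called, nor was it without 12 Gy mouse 26 (0.997). All 3 mice at 12 Gy lay on 1 side of the controls for Fitm2, Tm6sf2 and Pnpla3. The 12 Gy arrays were on slide 5 and the controls on slide 3, so dose and slide cannot be told apart for these genes. The 8 Gy mouse on slide 5 stood at 9.12 for Fitm2, 10.37 for Tm6sf2 and 7.30 for Pnpla3. The 8 Gy mice on slide 4 stood at 8.39 and 8.77, 9.95 and 9.99, and 8.37 and 7.79. Without 12 Gy mouse 16 none of these 3 was called (0.96, 0.89 and -1.08), without control mouse 11 Fitm2 was not (0.91) and without control mouse 21 Tm6sf2 was not (0.92). Over 15 alternatives Fitm2 was called in 8, with values from 0.77 to 1.18, Tm6sf2 in 10, from 0.44 to 1.18, and Pnpla3 in 10, from -1.47 to -0.76. The median log2 fold change of the list at 12 Gy in lung was 0.09, the same as over all probes.

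Between unirradiated tissues, 25 of the 40 genes differed past the thresholds, 17 higher in liver and 8 higher in lung. Of all 47376 probes 35.5% did, 8173 higher in liver and 8662 higher in lung. By fitted difference the leading genes of liver were Ces3a, Hsd17b13 and Cideb, a droplet protein of hepatocytes. The fit put Hsd17b13 534-fold higher in liver (limma, adjusted p = 1.0e-20), with a 95% interval of -9.63 to -8.49 for the log2 difference. Hsd17b13 was not well above background on any of the 3 lung arrays. With the mean over all Hsd17b13 probes the log2 difference was -5.76 in place of -9.06. A second fold set the mean of the brighter tissue against the higher of the lowest signal above background and the probe's own signal on each dim array. For Hsd17b13 and Plin1 it equaled the fitted fold, so it gives no lower limit. The leading genes of lung were Cidea, Plin1 and Hilpda. Plin1, the perilipin of adipocytes, was 34.4-fold higher by the fit (limma, adjusted p = 1.8e-10), with a 95% interval of 4.15 to 6.06 for the log2 difference. For Plin1 the log2 difference of 5.11 was 3.79 with a background offset of 50 and 4.48 without mouse 21, so each fold holds for the stated processing and mice only.

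Among 17272 other genes, the liver pattern of Plin4 over 18 arrays was most like those of Fgf1 (Pearson r = 0.95) and Il1r1 (0.95), that of Plin5 like Fkbp5 (0.94) and Tmc7 (0.94), and that of Lpin1 like Gin1 (0.92) and Fkbp5 (0.90). Cidec was closest to Angptl4 (0.87) and Eri2 (0.87), Pnpla2 to Sec24b (0.93) and Esrra (0.91), and Dgat2 to Plscr4 (0.86) and Stk25 (0.80). G0s2 was closest to Zbtb38 (0.84) and Thrb (0.80), Plin2 to Slc25a43 (0.78) and Dgke (0.78), and Mogat1 to Myo5b (0.71) and Cmklr1 (0.70). The arrays share doses and slides, so likeness across them is a description.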

How the data were processed

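RNA of 18 liver and 18 lung samples was hybridized to 1-color Agilent arrays, 1 array per sample. The deposited files hold spot intensity values as scanned (Agilent Feature Extraction 11.5.1.1 per the file headers), and the authors also deposited a value table with processed intensity values whose scaling is not given in the sources used here. The genome annotation used for names is RefSeq on GRCm38.p6. Names came from RefSeq accessions of 34566 probes, and 9009 probes with Ensembl transcript names were left unnamed. Median spot signal was corrected by normexp (offset 0) in limma 3.58.1 on R 4.3.3, outlier spots were set missing, and arrays were quantile normalized within each tissue (all 36 together between tissues), log2 transformed and averaged over the spots of a probe. The filter kept probes that exceeded background well on 1 array or more. Dose groups and a linear trend over 12 Gy were fitted by lmFit and eBayes with Benjamini-Hochberg adjustment over all probes. A gene was read from its probe with the highest mean level. The genes and lists were chosen with earlier results of these data known. Named were all 10 genes, other triglyceride genes called at 1 dose or more, the 3 leading genes per direction between tissues, the 2 genes most like each (for Lpin2 not reported here) and Cdkn1a. On simulated liver values for 12 Gy over 38362 probes, 88% of 100 probes changed by 2 on the log2 scale and 85% of 100 changed by 1.5 were recovered. In each of these runs 9 unchanged probes were called as well. Liver and lung share sample numbers in the labels, but deviations from group means of equal numbers did not correlate (r between -0.05 and 0.05 over 18 pairs). The miRNA arrays were not used here, and slide 3 held arrays of each tissue.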

Additional observations from a re-analysis of the deposited data

Results flagged for a closer look

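The linear dose trend was compared between tissues for the other triglyceride genes with all 36 arrays in a single fit. It passed the fold and adjusted p thresholds of the calls for 4 of them, as change over 12 Gy on the log2 scale, lung minus liver. The share of all probes that passed was not taken. Slide was not in this fit and went along with dose in lung, so its part in these differences was not tested. For Lpl, the lipase that frees fatty acids from lipoproteins, the difference was 1.82 ± 0.40 (limma, adjusted p = 0.0021), from a trend of -0.80 in liver and 1.02 in lung. For Tm6sf2 it was 1.14 ± 0.20 (adjusted p = 1.9e-04), from -0.07 and 1.07. For Agpat1 it was -1.14 ± 0.24 (adjusted p = 0.0016), from 0.37 and -0.77, and for Gpat3 -1.44 ± 0.51 (adjusted p = 0.048), from 1.03 and -0.41, and both are acyltransferase genes of triglyceride synthesis. Rab18 (0.71, limma, adjusted p = 0.0013), Fitm2 (0.79, adjusted p = 0.0033) and Abhd5 (0.68, adjusted p = 0.0093) fell short of the fold threshold only.

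Among the 10 genes, Pnpla2 at 12 Gy lay above all controls in liver in each of 3 mice and below all controls in lung in each of 2 mice with a value, a lung minus liver difference of -1.32 in log2 fold change. This difference was not tested. In lung the controls and the 12 Gy arrays were on different slides, and on slide 5 the 2 mice at 12 Gy lay above the 8 Gy mouse by 0.43.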

How the results depend on the processing

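Over all alternatives, 271 counts stayed within 1.5 times the reported count and 20 did not. The 271 include counts of 0 that stayed 0, and a fall from 3 genes to 2 counts as within. Of single values with a test, 78 lost their call and 6 gained one. For the 10 genes over dose, 58 values moved past a spread taken from their SE. None of the called values changed sign. Slide as a term in liver gave 0 genes called at 8 Gy, 0 at 12 Gy, 0 for the trend and 0 other triglyceride genes. As a random block slide left 0 genes at 12 Gy and 2 other triglyceride genes in lung. In lung, slide as a term gave 0 genes for the trend and 0 at 1 Gy, and could not be fitted for the contrasts of 2 Gy or more with 0 Gy. Adjusted p below 0.05 at any fold gave 5 genes for the liver trend, 3 for the lung trend, and 8 and 9 other triglyceride genes in liver and lung. This looser rule can only add calls, and the share of all probes it calls was not taken. In lung, the authors' value table gave 2 genes for the trend and 2 other triglyceride genes, an offset of 50 gave 2 and the mean over all probes of a gene gave 1. Leaving out 1 mouse gave 0 to 1 genes at 12 Gy, 1 to 2 for the trend and 2 to 4 other triglyceride genes in lung, the last lowest without 12 Gy mouse 16. Mouse number as a replicate block gave 6 genes and 25 other triglyceride genes between tissues, and changed no call. Slide as a term for the tissue contrast was added after seeing the data. With it, as in each of 12 alternatives, the 6 genes called between tissues kept their call and direction. For the dose comparisons within a tissue, no paired analysis was possible because each mouse had a single dose. With 3 mice per group, small changes are beyond what these arrays can resolve.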
